A study of Mus musculus with 6 samples.

Results

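Sarcomere and muscle differentiation genes were followed in the mandibular part of the first pharyngeal arch of C57BL/6 mouse embryos at stage E10.5. The set was a list of 42 genes of the contractile apparatus and its accessories, and every probe set annotated to 1 of these symbols alone was used. All 42 had such a probe set, among 18194 genes that did. The arrays were 3 labelled Tbx1+/+ and 3 labelled Tbx1-/-, all of the same strain, stage and tissue. Tbx1 encodes a T-box transcription factor needed in the pharyngeal region, and the null allele carried by the mutants is not described in the sources used here. Arches of 3 embryos of a genotype were pooled to obtain enough RNA. Whether each array had a pool of its own is not stated, and the p-values then reflect spread between these samples alone, which may be technical. In whole tissue, fewer muscle precursor cells and less transcript per cell cannot be told apart.

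A sarcomere is the repeating contractile unit of striated muscle. Thin filaments of actin, tropomyosin and the troponin complex slide along thick filaments of myosin, while titin and the Z-disc hold the lattice together, and calcium released from the sarcoplasmic reticulum acts through troponin C to start contraction. In the mandibular arch the jaw-closing muscles, which use many of these genes, form from the mesodermal core within a surrounding mesenchyme of neural crest origin. Not every member is confined to that core. Myogenic factors of the Myf5 and Myod1 family bind E-boxes in the regulatory DNA of many of these genes, often near sites for MEF2 factors. Several members are also used by the heart, and Acta2 is an actin of smooth muscle.

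The comparison asks whether transcripts of the contractile apparatus differ when Tbx1 is lost. 2 members stood well apart from the others on the arrays labelled Tbx1-/-: Tnnt1, the troponin T of slow skeletal muscle, was 2.65-fold lower, and Synpo2l, an actin-associated Z-disc protein of heart and skeletal muscle, was 2.39-fold lower. Neither passed an adjusted p of 0.05 over all 16074 genes tested in limma, nor did any other member tested (0 of 39, where 0.0373% of all genes passed). Tnnt1 did pass when the replicate number was taken as a block. Of the 42 members, 39 differed by less than 0.5 on the log2 scale, as did 98.1% of all genes.

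The regulatory DNA just before the start sites of these genes is shown first for a few members that were lower or higher at an unadjusted p under 0.05. Promoter sequences of RefSeq on build GRCm38.p6 matched 38 of the 42 members, with 46 start sites among them, and the 250 bases before each start were read. Capitals mark E-boxes, spelled CANNTG, and MEF2 sites, on both strands, and the sequences run 5′ to 3′ along the gene. The 2 largest decreases (Tnnt1 and both starts of Synpo2l), a myosin light chain that was lower (Myl1) and the 2 members that were higher at that level (Unc45b and the upstream one of the 2 starts of Tnni1) are given.
Tnnt1 (chr7:4515976-4516225, minus strand): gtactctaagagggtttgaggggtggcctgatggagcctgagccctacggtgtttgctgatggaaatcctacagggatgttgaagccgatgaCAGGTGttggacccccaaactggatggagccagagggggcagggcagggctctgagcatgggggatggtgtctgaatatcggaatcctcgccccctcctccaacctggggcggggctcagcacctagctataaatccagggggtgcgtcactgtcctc
Synpo2l first start (chr14:20664575-20664824, minus strand): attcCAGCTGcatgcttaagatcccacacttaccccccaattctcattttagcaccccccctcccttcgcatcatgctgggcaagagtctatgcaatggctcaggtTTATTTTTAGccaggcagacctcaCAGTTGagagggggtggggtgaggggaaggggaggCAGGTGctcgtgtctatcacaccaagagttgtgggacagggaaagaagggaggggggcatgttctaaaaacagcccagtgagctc
Synpo2l second start (chr14:20668355-20668604, minus strand): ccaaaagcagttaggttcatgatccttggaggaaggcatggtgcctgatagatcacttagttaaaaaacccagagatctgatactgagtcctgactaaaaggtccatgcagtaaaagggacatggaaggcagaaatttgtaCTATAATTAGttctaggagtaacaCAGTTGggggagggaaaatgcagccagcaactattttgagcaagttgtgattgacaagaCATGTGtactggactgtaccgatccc
Myl1 (chr1:66945057-66945306, minus strand): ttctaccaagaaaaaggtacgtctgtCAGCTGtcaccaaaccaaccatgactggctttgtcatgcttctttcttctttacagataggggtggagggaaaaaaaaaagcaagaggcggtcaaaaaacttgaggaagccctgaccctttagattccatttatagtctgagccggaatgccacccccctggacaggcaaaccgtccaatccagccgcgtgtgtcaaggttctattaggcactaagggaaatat
Tnni1 (chr1:135799171-135799420, plus strand): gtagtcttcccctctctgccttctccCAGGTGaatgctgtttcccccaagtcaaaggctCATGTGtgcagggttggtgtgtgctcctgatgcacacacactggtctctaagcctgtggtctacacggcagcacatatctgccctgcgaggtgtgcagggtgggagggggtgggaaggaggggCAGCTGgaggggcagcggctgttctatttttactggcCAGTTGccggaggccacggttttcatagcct
Unc45b (chr11:82911003-82911252, plus strand): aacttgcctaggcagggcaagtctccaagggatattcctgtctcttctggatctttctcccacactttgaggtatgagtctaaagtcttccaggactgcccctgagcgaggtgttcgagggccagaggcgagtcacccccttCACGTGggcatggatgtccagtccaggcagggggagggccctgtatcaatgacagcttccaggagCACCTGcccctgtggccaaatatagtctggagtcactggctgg

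The window of Tnnt1 held 1 E-box, CAGGTG, which began 158 bases before the start, and a TATAAA sequence 30 bases before it, and no MEF2 site was found in this window. Both windows of Synpo2l held a MEF2 site, 144 and 109 bases before their starts. The Synpo2l window at chr14:20664575-20664824 also held 3 E-boxes and, on the reverse strand 69 bases before the start, the T-box half-site GGTGTGA. The window of Myl1 held a single E-box, CAGCTG, 224 bases before the start, and TATAAA on the reverse strand 95 bases before it. The window of Tnni1 that is shown held 4 E-boxes and that of its other start 2. The window of Unc45b held 2, CACGTG and CACCTG, 108 and 43 bases before the start. Myl7, whose mean was also higher, had 1 E-box, a CArG box and a CATTCCT element 168, 61 and 70 bases before its start.

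Over all member windows, an E-box was found in 39 of 46 (84.8%), against 66.2% of all 32851 windows of this length. The form CAGCTG, counted among the E-boxes too, was in 15 of 46 (32.6% against 13%). MEF2 sites were in 6 member windows (13% against 2.92%), and CArG boxes, which bind serum response factor, were in 6 (13% against 1.47%). The MCAT element CATTCCT, a TEAD site of muscle promoters, was in 8 (17.4% against 4.51%), TATAAA in 11 (23.9% against 12.4%) and GGTGTGA in 3 (6.52% against 3.33%). All motifs were searched on both strands, and windows of genes with several starts can overlap. A match of letters describes the sequence and is not a measured binding site.

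The arrays had similar overall levels, with medians of 6.08 to 6.15 on the log2 scale, and their number limits the precision of every value. Tbx1 itself read 6.93, 7.31 and 6.92 on the Tbx1+/+ arrays and 7.59, 7.50 and 7.30 on the Tbx1-/- arrays, higher on average on the latter by 0.41 (SE 0.14, limma adjusted p = 1.00). Its 1 probe set is not known to lie in the part that was disrupted, so it does not check the labels, and directions follow the labels. 1 array stood apart: on Tbx1-/- replicate 3, 249 genes exceeded the other arrays by over 1 on the log2 scale, against 6 to 32 for each other array. All 7 placental markers with a probe set were higher on it, with a mean level of 10.65 against 4.29 to 4.76 on the other arrays. Values without this array are therefore given beside the results it touches.

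Most members read low on this tissue. The mean over the 6 arrays was under 5 on the log2 scale for 9 members, from 5 to 6 for 17, from 6 to 7 for 11 and at 7 or above for 5, namely Tpm2, Mef2c, Tnnt1, Des and Acta2. Cdh15 and Ryr1 came just below 7 with means of 6.87 and 6.98. Tnnt2, Neb and Pln were not tested, since they did not exceed 4 on at least 3 arrays, and no member was tested through 1 genotype alone. Levels of different genes are not compared here, since probe sets differ in their response.

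Tnnt1 encodes the slow skeletal isoform of the subunit that anchors troponin to tropomyosin. It read 8.60, 9.08 and 8.42 on the Tbx1+/+ arrays and 7.01, 7.50 and 7.37 on the Tbx1-/- arrays (log2). Every Tbx1-/- array was thus well below every Tbx1+/+ array. The mean went from 8.70 ± 0.34 (SD, n = 3) to 7.29 ± 0.25 (SD, n = 3), a change of -1.41 (SE 0.19, 95% interval -1.85 to -0.97). In limma the adjusted p over all genes was 0.113 (unadjusted p = 7.04e-05). Blocking on the replicate number gave an adjusted p of 0.0361, and Tnnt1 was the 1 member that passed, among 0.0622% of all genes. A two-sided exact permutation test gave p = 0.10, the smallest that 3 arrays against 3 allow. Without Tbx1-/- replicate 3 the change was -1.45 (adjusted p = 0.058), and leaving out each array in turn gave -1.55 to -1.22. The array has 1 probe set for Tnnt1, so no second reading of this gene exists here.

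Synpo2l, also known as CHAP, binds alpha-actinin at the Z-disc. Its brightest probe set read 6.47, 7.05 and 6.37 on the Tbx1+/+ arrays and 5.48, 5.21 and 5.41 on the Tbx1-/- arrays. The groups were clearly apart, with means of 6.63 ± 0.37 and 5.37 ± 0.14 (SD, n = 3 each). The change was -1.26 (SE 0.19, 95% interval -1.69 to -0.83), with an unadjusted p of 1.26e-04 and an adjusted p of 0.184 in limma. The block gave an adjusted p of 0.197, and leaving out each array in turn gave changes of -1.39 to -1.05.

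The other probe sets of Synpo2l did not all follow the brightest one. A dim second probe set had a change of -0.64, reading 3.81, 3.84 and 4.07 on the Tbx1+/+ arrays and 3.31, 3.24 and 3.23 on the Tbx1-/- arrays. Another set had a change of -0.54, again with no overlap, whereas the last differed by 0.19 in the opposite direction with overlapping groups. These dimmer sets read 4.68 or below on all arrays, and the brightest one carries a suffix for probes that related transcripts can share. With the mean of the 4 sets the change was -0.56 (adjusted p = 0.775 in limma).

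**Figure D1:**
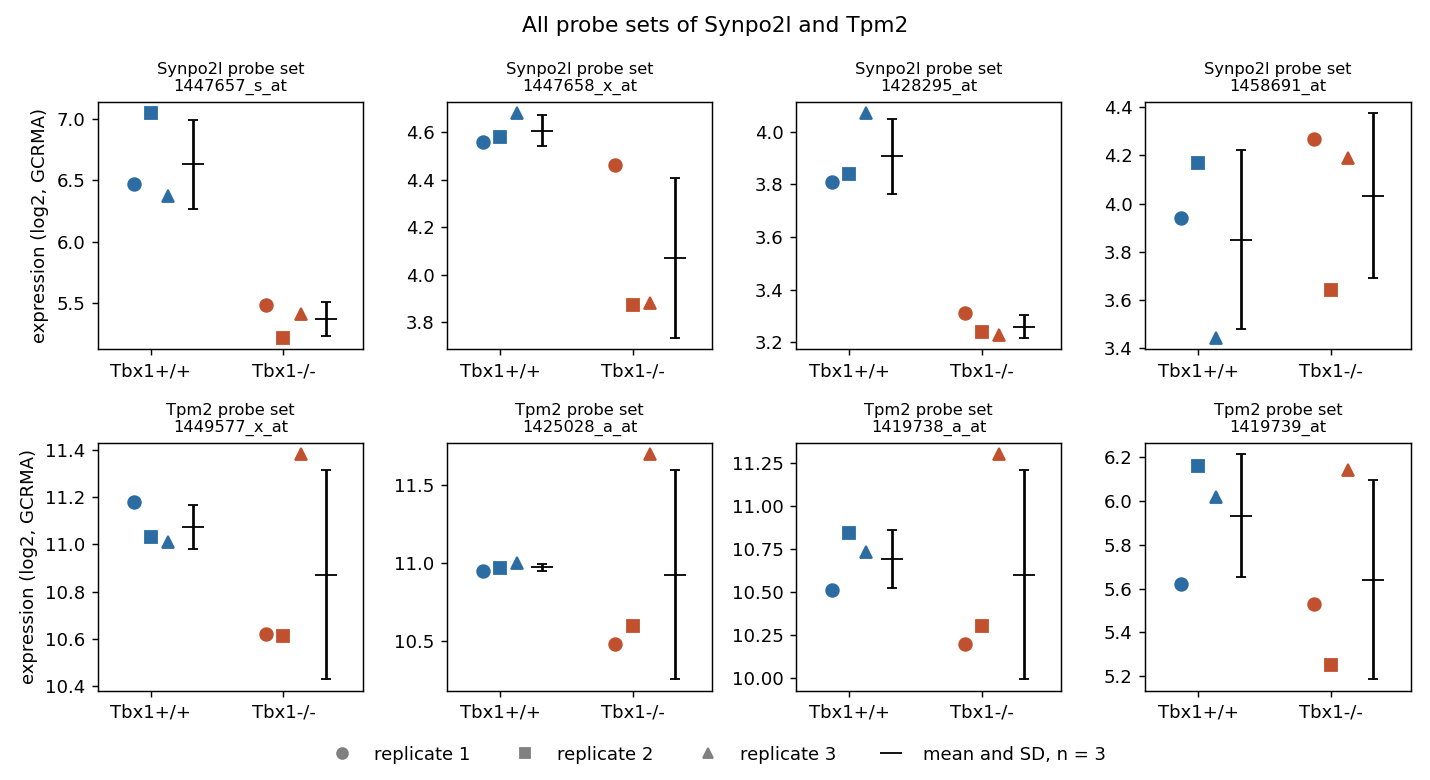
Expression (log2, GCRMA) on each array for every probe set of Synpo2l (top row) and Tpm2 (bottom row), by genotype; marker shapes give the replicate number and bars the mean and SD of 3 arrays. The genotypes do not overlap on 3 of the 4 Synpo2l sets, with changes of -1.26, -0.64 and -0.54, and each Tpm2 set is at or near its highest on Tbx1-/- replicate 3.

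Among the other thin filament genes the differences were small or uneven. Actc1, the cardiac actin that is also the main sarcomeric actin of early skeletal muscle, read 6.41, 7.69 and 6.44 on the Tbx1+/+ arrays and 5.87, 6.78 and 5.30 on the Tbx1-/- arrays. The groups overlapped, but each Tbx1-/- array was below the Tbx1+/+ array of the same number, replicate 2 being highest in both. The change was -0.86 (SE 0.43, limma adjusted p = 1.00), and with the replicate block p was 5.60e-04 before adjustment over all genes and 0.273 after it. It was -0.52 without Tbx1-/- replicate 3 and -0.44 without Tbx1+/+ replicate 2. Acta1, the skeletal actin, changed by -0.03 (95% interval -0.35 to 0.28).

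Tpm2, which encodes beta-tropomyosin, was among the members whose reading depended on 1 array. It read 11.18, 11.03 and 11.01 on the Tbx1+/+ arrays, 10.62 and 10.61 on Tbx1-/- replicates 1 and 2, and 11.38 on Tbx1-/- replicate 3. The change was -0.21 (SE 0.19, 95% interval -0.64 to 0.23) with all arrays and -0.46 without replicate 3 (unadjusted p = 7.69e-04, adjusted p = 0.229 in limma). On its other 3 probe sets Tbx1-/- replicates 1 and 2 were likewise below all Tbx1+/+ arrays, and replicate 3 read 11.70, 11.30 and 6.14. The placental transcripts were high on that same array, and their part in these readings was not tested. Des, the muscle intermediate filament desmin, had the same order: 7.65, 7.83 and 7.87, then 7.49 and 7.64, and 8.18 on Tbx1-/- replicate 3.

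The remaining troponins did not share the difference of Tnnt1. Tnnt3, the fast skeletal troponin T, read 6.48, 6.32 and 6.57 on the Tbx1+/+ arrays and 6.21, 6.20 and 6.67 on the Tbx1-/- arrays, a change of -0.09 (95% interval -0.45 to 0.26) that was -0.25 without replicate 3. Tnnt2, the cardiac troponin T, read 3.61 to 4.50 on all arrays and was not tested. Tnni1, the slow skeletal troponin I, went the other way: it read 6.24, 6.35 and 6.30 on the Tbx1+/+ arrays and 6.57, 6.60 and 6.66 on the Tbx1-/- arrays. These groups were tight and did not overlap, yet the difference of 0.31 (SE 0.10) had an unadjusted p of 0.0162 and an adjusted p of 1.00 in limma.

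The fast and cardiac troponin I genes Tnni2 and Tnni3 differed by 0.02 and 0.05, with 95% intervals of -0.26 to 0.31 and -0.29 to 0.40. Tnni2 read 6.85, 6.90 and 6.59 against 6.73, 6.91 and 6.77, so its groups were mixed. Tnnc2, the fast skeletal calcium-binding subunit, was lower by 0.34 in the mean with overlapping groups (SE 0.17), and the change was -0.44 without Tbx1-/- replicate 3. Tnnc1, the slow and cardiac form, read 6.61, 6.98 and 6.71 against 6.54, 6.70 and 6.62, a change of -0.15 (95% interval -0.44 to 0.15). Acta2 read 7.26, 7.72 and 7.41 on the Tbx1+/+ arrays and 7.44, 7.32 and 6.28 on the Tbx1-/- arrays. Its change of -0.45 (SE 0.29) was set by the last of these, being -0.08 without it. The actin genes are near-identical in their coding parts, so their separate readings are uncertain. Neb, the giant template protein of the thin filament, read 3.23 to 3.80 and was not tested.

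Whether related genes changed by different amounts was tested within arrays, by the difference between their log2 values on each array. 8 pairs were compared, by two-sided exact permutation tests that cannot go below p = 0.10, with p-values also adjusted over the pairs. Tnnt1 minus Tnnt3 was 2.13, 2.76 and 1.85 on the Tbx1+/+ arrays and 0.80, 1.30 and 0.70 on the Tbx1-/- arrays. The groups did not overlap, and the difference of the 2 changes was -1.32 (exact p = 0.10, adjusted p = 0.20). Against Tnnt2 the difference of changes was -1.76 (exact p = 0.10), Tnnt2 reading 4.50 or below on every array. Tnni1 minus Tnni3 differed by 0.26 and Myl1 minus Myl4 by -0.65, both with groups apart and an exact p of 0.10. The adjusted p was 0.20 for each of these. The pairs Tnni1 and Tnni2, Mylpf and Myl7, Acta1 and Acta2, and Actc1 and Acta2 had overlapping groups, with differences of 0.29, -0.73, 0.41 and -0.41 and exact permutation p-values of 0.20, 0.20, 0.50 and 0.40.

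**Figure D2:**
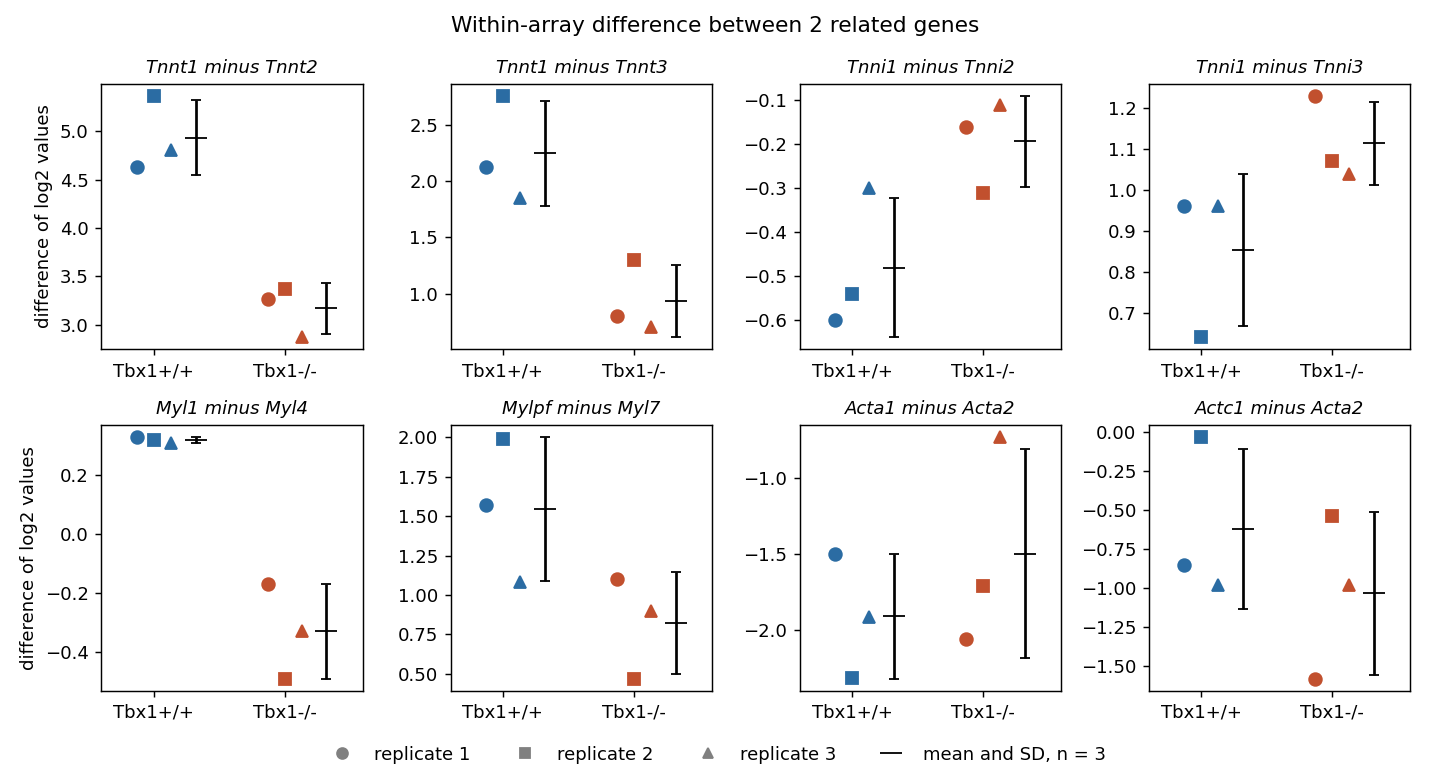
Difference between the log2 values of 2 related genes on the same array, for 8 pairs, by genotype; marker shapes give the replicate number and bars the mean and SD of 3 arrays. Tnnt1 minus Tnnt3 lies between 1.85 and 2.76 on the Tbx1+/+ arrays and between 0.70 and 1.30 on the Tbx1-/- arrays, and Myl1 minus Myl4 is lower on every Tbx1-/- array, with a difference of changes of -0.65; the sign of a value has no meaning, since probe sets differ in their response.

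In the thick filament, the light chains Myl1, Mylpf and Myl2 read lower, Myl7 and Myl4 had higher means, and Myl3 was close to equal. None of them passed the threshold. Myl1, the fast skeletal essential light chain, read 5.71, 5.95 and 5.59 on the Tbx1+/+ arrays and 5.12, 5.48 and 5.32 on the Tbx1-/- arrays. All Tbx1-/- arrays were below all Tbx1+/+ arrays, and the change was -0.44 (SE 0.15, unadjusted p = 0.0158, adjusted p = 1.00 in limma). Mylpf, the fast skeletal regulatory light chain, read 6.67, 7.11 and 6.49 against 6.40, 6.30 and 6.48. These groups only just failed to touch, and the change of -0.37 (SE 0.17) was -0.19 without Tbx1+/+ replicate 2. Myl2, the ventricular and slow muscle light chain, read 4.45, 4.40 and 4.68 against 4.19, 3.91 and 4.35, a change of -0.36 (SE 0.15) near the low end of the scale. Myl7, the atrial regulatory light chain, differed by 0.36 (SE 0.16, 95% interval -0.01 to 0.74) with overlapping groups. It read 5.10, 5.12 and 5.41 against 5.30, 5.83 and 5.58, higher within each pair of the same number, and its unadjusted p in limma was 0.0555, or 0.0453 with the block (adjusted p = 1.00 in both). Myl4 and Myl3 differed by 0.21 and -0.07, and the other 2 sets of Myl3 by 0.21 and 0.18.

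The probe sets of the myosin heavy chains, the motors of the thick filament, read low and close to equal between genotypes. Their means over the 6 arrays were under 5 on the log2 scale for Myh3 and Myh6, and from 5 to 6 for Myh7 and Myh8. GCRMA can compress differences near background, so these readings cannot tell unchanged transcripts from absent ones. Myh3, the embryonic form, differed by -0.17 (SE 0.15), Myh8, the perinatal form, by 0.02 (SE 0.14), Myh6 by 0.12 (SE 0.12) and Myh7 by 0.15 (SE 0.13). The cardiac genes Myh6 and Myh7 are near-identical neighbours, and 2 further probe sets annotated to both were not used. Mybpc3, the cardiac myosin-binding protein C, differed by 0.01, and Ttn, which encodes titin, by -0.01 (95% interval -0.32 to 0.29), with its 6 probe sets between -0.01 and 0.12. Unc45b, a chaperone that folds myosin, read 4.50, 4.42 and 4.05 on the Tbx1+/+ arrays and 4.56, 4.81 and 4.77 on the Tbx1-/- arrays. The groups did not overlap, and the difference was 0.39 (SE 0.15, unadjusted p = 0.029, adjusted p = 1.00 in limma). Smyd1, a methyltransferase of myosin assembly, differed by 0.21 (SE 0.17).

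**Figure D3:**
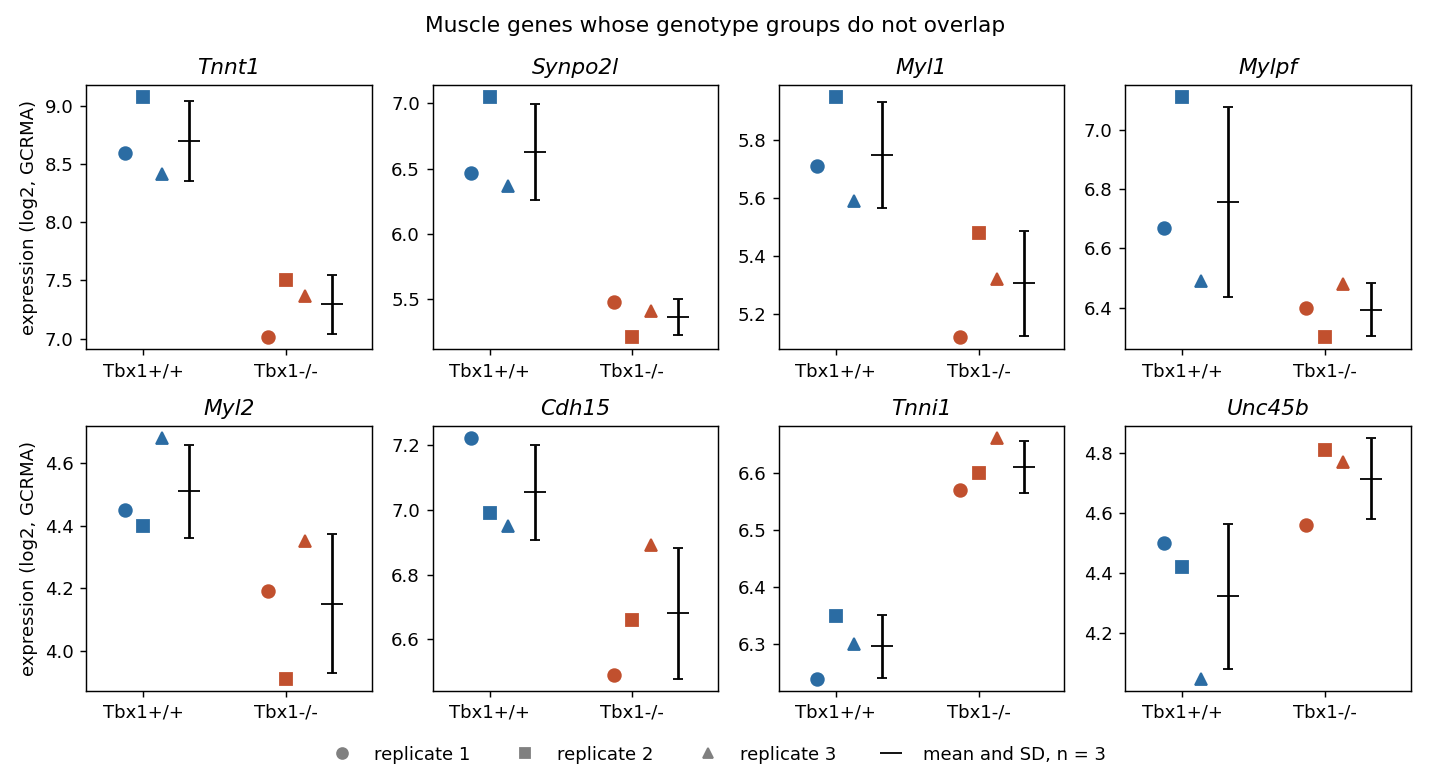
Expression (log2, GCRMA) on each array for the 8 members whose genotype groups did not overlap; marker shapes give the replicate number, bars the mean and SD of 3 arrays, and each panel has its own scale that does not start at 0. Tnnt1 and Synpo2l have the widest gap between genotypes, with changes of -1.41 and -1.26, and Tnni1 and Unc45b are the 2 that are higher on the Tbx1-/- arrays.

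Apart from Synpo2l, the brightest probe sets of the lattice proteins had small differences. Actn2, the alpha-actinin that crosslinks actin at the Z-disc, read 5.24, 5.37 and 5.36 against 5.29, 5.08 and 5.37, a change of -0.08 (95% interval -0.36 to 0.20). Ldb3, a PDZ-LIM protein of the Z-disc, changed by -0.01 (95% interval -0.36 to 0.33) on its brightest set. A second Ldb3 set of similar brightness read 5.53, 5.38 and 5.72 against 5.17, 5.35 and 5.29, a change of -0.27 with groups that did not overlap, and the last differed by -0.14 with overlap. The sets of Ldb3 thus did not give 1 reading. Des changed by -0.01 (95% interval -0.42 to 0.39) with all arrays and by -0.22 without Tbx1-/- replicate 3.

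Genes of calcium handling showed small differences. Ryr2, the calcium release channel of the heart, read 5.69, 5.70 and 5.69 on the Tbx1+/+ arrays and 5.67, 5.74 and 5.65 on the Tbx1-/- arrays, a change of -0.01 (95% interval -0.25 to 0.23). Ryr1, its skeletal counterpart, read 6.60, 7.33 and 6.96 against 6.84, 6.97 and 7.18, a difference of 0.03 (95% interval -0.40 to 0.46). Casq2, which stores calcium in the reticulum, changed by -0.06, and Pln, the inhibitor of the calcium pump, was at 3.89 or below on its brightest set and not tested.

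The subunits of the muscle acetylcholine receptor, through which motor nerves trigger contraction, all had lower means on the Tbx1-/- arrays, none past the threshold. Chrna1, Chrnd and Chrng changed by -0.08, -0.13 and -0.14, each with an SE of 0.12 to 0.14 and overlapping groups. Chrnb1, the beta subunit, read 5.27, 5.95 and 5.78 on the Tbx1+/+ arrays, 4.86 and 4.84 on Tbx1-/- replicates 1 and 2, and 6.01 on Tbx1-/- replicate 3. As for Tpm2, the third mutant array was the highest of all. The change was -0.43 (SE 0.32) with all arrays and -0.81 without replicate 3 (unadjusted p = 0.00288, adjusted p = 0.528 in limma).

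Of the remaining members, Cdh15, or M-cadherin, an adhesion protein of myogenic precursors, read 7.22, 6.99 and 6.95 against 6.49, 6.66 and 6.89. All Tbx1-/- arrays were below the Tbx1+/+ arrays, and the change was -0.37 (SE 0.14, unadjusted p = 0.0272, adjusted p = 1.00 in limma). Mef2c, a transcription factor that works with the myogenic factors and is also used by endothelium and neural crest, read 8.85, 8.73 and 8.96 against 9.08, 8.78 and 8.71. Its difference was 0.01 (95% interval -0.28 to 0.29) and lay between 0.01 and 0.07 on its 5 probe sets. Ckm, the muscle creatine kinase, changed by -0.01.

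Counted over the list, the members lay slightly to the lower side. The list was chosen with earlier results of these data known. Its shares here and by role can be raised by that choice and are a description alone. Of the 39 tested, 5 were lower at an unadjusted p under 0.05 (12.8%, where 1.2% of all genes were) and 2 were higher (5.13%, where 1.47% of all genes were). Those lower were Tnnt1, Synpo2l, Myl1, Myl2 and Cdh15, and those higher Tnni1 and Unc45b. Over all 42, the Tbx1-/- arrays were all below the Tbx1+/+ arrays for 6 members (14.3%, against 3.42% of all genes) and all above for 2 (4.76%, against 3.33%). Means were lower for 27 of 42 (64.3%, against 52.1% of all genes). The median change was nonetheless -0.05, against -0.01 over all genes, so the typical member differed by little. Without Tbx1-/- replicate 3, 8 members were lower by the unadjusted test (1.41% of all genes) and 0 passed after adjustment in limma (0.137% of all genes). 11 had non-overlapping lower groups (7.54% of all genes) and 2 higher ones (7.01%), and 27 of 42 means were lower (52.7%). Those that joined the 6 were Tnnt3, Tnnc2, Tpm2, Des and Chrnb1. Leaving out other arrays moved the count of members lower by the unadjusted test either way. It was 2 without Tbx1-/- replicate 1, 3 without Tbx1+/+ replicate 1, and 4 without replicate 2 of either genotype. Without Tbx1+/+ replicate 3 it was 6. Shares of all genes were not counted for these settings. In the other direction, 1 was higher by the unadjusted test without Tbx1-/- replicate 3 (1.78% of all genes). With the replicate block, 6 were lower (1.89% of all genes) and 3 higher (2.35%) by that test, Actc1 and Myl7 being the additions.

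**Figure D4:**
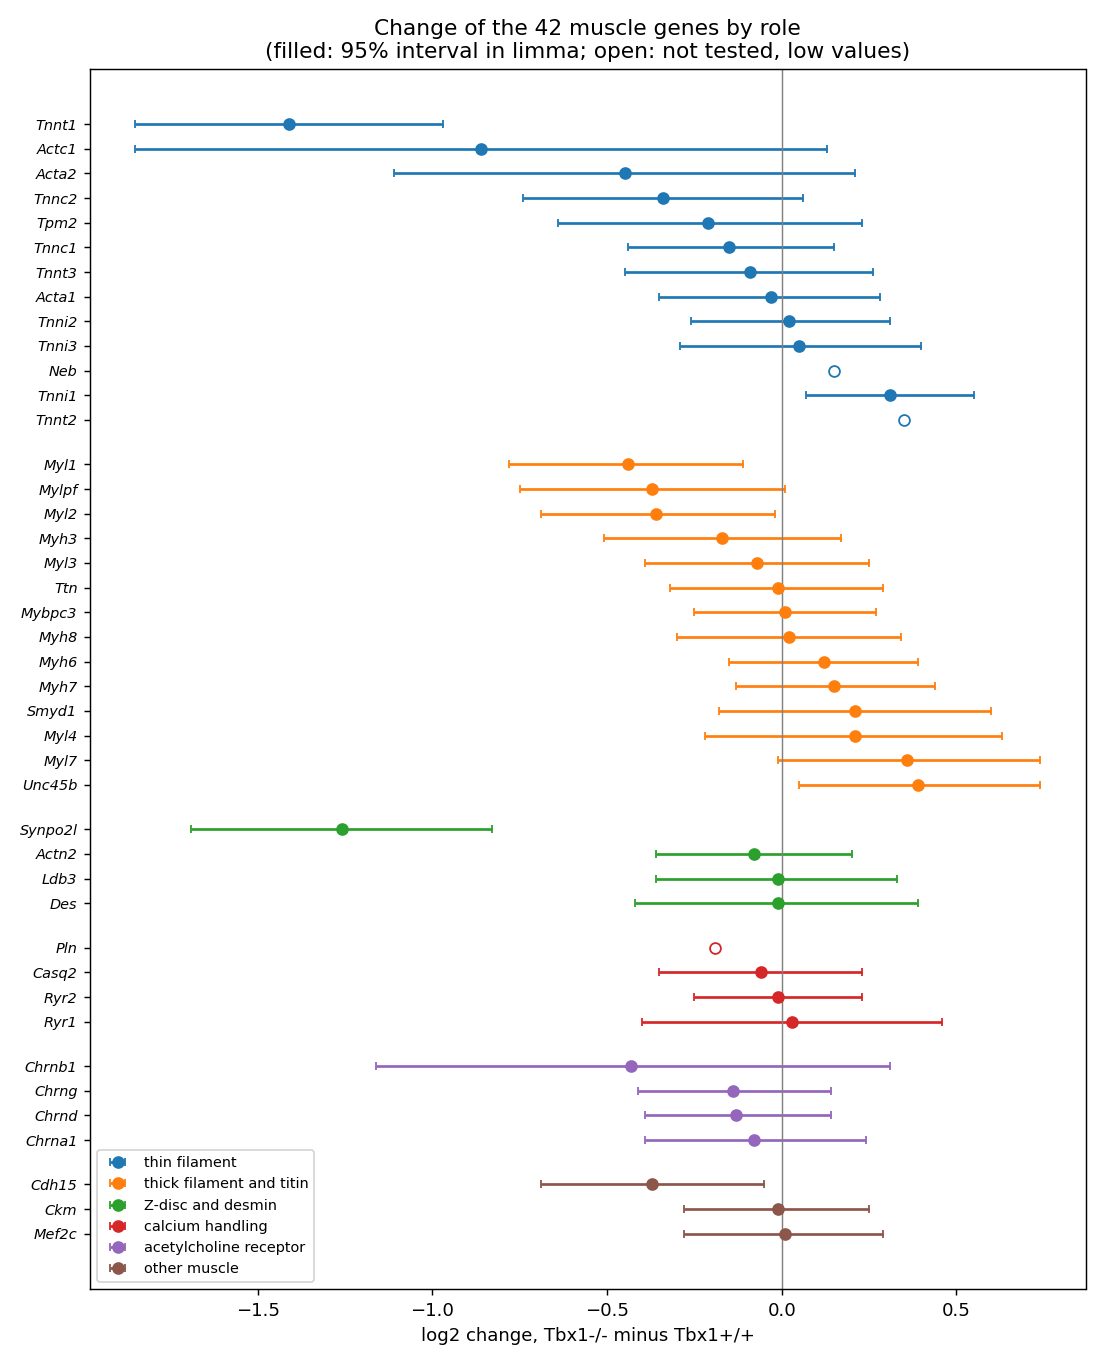
Log2 change, Tbx1-/- minus Tbx1+/+, of all 42 members in 6 role groups, with the 95% interval from limma as bars for the 39 tested and open circles without bars for Tnnt2, Neb and Pln. Tnnt1 (-1.41) and Synpo2l (-1.26) are the members whose change exceeds 1 in size, and most others lie within 0.5 of 0.

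By role, the median change was -0.09 over the 13 thin filament genes, 0.02 over the 14 of the thick filament, -0.05 over the 4 Z-disc and desmin genes, -0.03 over the 4 of calcium handling and -0.13 over the 4 receptor subunits. The 12 cardiac-type members (Myl2, Myl3, Myl7, Tnnt2, Tnni3, Myh6, Myh7, Mybpc3, Pln, Ryr2, Casq2 and Synpo2l) had a median of 0.00 with 6 lower means. The 19 skeletal-type members (Acta1, Tnnt1, Tnnt3, Tnni1, Tnni2, Tnnc2, Myl1, Mylpf, Myh3, Myh8, Neb, Ryr1, Chrna1, Chrnb1, Chrnd, Chrng, Ckm, Cdh15 and Unc45b) had a median of -0.09 with 13 lower means. By the unadjusted test, 2 of 10 cardiac-type members tested (20%) and 3 of 18 skeletal-type members (16.7%) were lower, against 1.2% of all genes. Those higher were 0 and 2 (11.1%), against 1.47% of all genes. The 2 lower cardiac-type members, Synpo2l and Myl2, are also used by skeletal muscle, so these counts cannot compare the types. For 34 of the 39 tested, the 95% interval lay within 1 of 0 on the log2 scale (97.5% of all genes tested). A 2-fold change of the array reading thus lay outside it. The 5 exceptions were Actc1, Acta2, Tnnt1, Synpo2l and Chrnb1. Since GCRMA can compress differences near background and the spread may be technical, these intervals do not exclude a 2-fold change of the transcripts.

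The array left out altered the size of several changes. Tnnt1, Synpo2l and Myl1 kept changes of -1.22, -1.05 and -0.34 or larger in size whichever array was left out. Chrnb1 ranged from -0.81 to -0.23, Tpm2 from -0.46 to -0.08, Acta2 from -0.66 to -0.08 and Actc1 from -1.26 to -0.44.

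**Figure D5:**
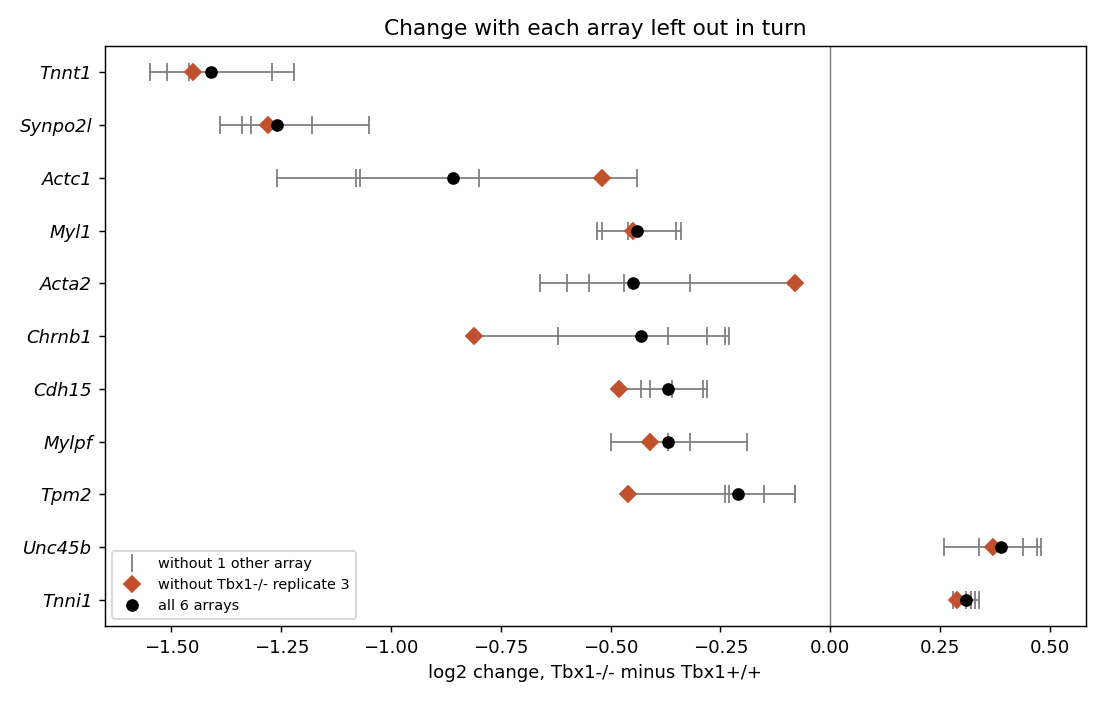
Log2 change, Tbx1-/- minus Tbx1+/+, of 11 members with all 6 arrays (black points), without Tbx1-/- replicate 3 (red diamonds) and without each other array (grey ticks). The points for Tnnt1 and Synpo2l stay at -1.05 or below, whereas removing Tbx1-/- replicate 3 moves Tpm2 from -0.21 to -0.46, Chrnb1 from -0.43 to -0.81 and Acta2 from -0.45 to -0.08.

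A further list of 50 muscle structure genes that are not members was read beside them. Of 46 with a probe set and 41 tested, 0 passed the adjusted threshold in limma, 3 were lower (7.32%, against 1.2% of all genes) and 0 higher where the unadjusted p was under 0.05, and the median change was -0.01. Tpm1, another tropomyosin, changed by -0.21 (SE 0.08), Dmd, which encodes dystrophin, by -0.39 (SE 0.14), and Myoz1, a Z-disc protein, by -0.31 (SE 0.11). Regulators of the myogenic lineage had larger differences, in a list also chosen with earlier results of these data known, which can raise its shares. Of 15 tested, 2 passed in limma, where 0.0373% of all genes did: Myf5 had a change of -2.33 (adjusted p = 0.0493, and 0.032 with the block) and Tcf21 of -1.53 (adjusted p = 0.0184). In all, 7 had lower means (46.7%, against 1.2% of all genes) and 1, Tbx1, a higher mean (6.67%, against 1.47%) with an unadjusted p under 0.05. Myf5 read 7.58, 7.75 and 7.51 on the Tbx1+/+ arrays and 4.71, 5.91 and 5.22 on the Tbx1-/- arrays. Lhx2, a LIM-homeodomain factor, had a change of -1.71 (SE 0.23) and Myod1, a myogenic determination factor, of -0.84 (SE 0.16), neither past the threshold. Myog, which drives terminal differentiation and was picked out after its values were seen, read 5.28, 5.61 and 5.20 against 4.66, 4.92 and 4.75, a change of -0.59 (SE 0.14).

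Markers of other cells that use the same contractile genes were read beside them. Of 11 heart markers, 2 of them members (Myl2 and Myh6), 10 were tested and 0 passed in limma. At an unadjusted p under 0.05, 1 was lower (Myl2, 10%, against 1.2% of all genes) and 0 higher (against 1.47%). The summed log2 level of the 11 was 55.4 to 57.1 on the Tbx1+/+ arrays and 56.0, 56.0 and 59.2 on the Tbx1-/- arrays, highest on replicate 3. Bmp10, a marker of the cardiac chamber wall, read 3.10 or below everywhere, Nppa 4.50 to 5.11 and Nkx2-5 4.59 to 4.70. Means were higher on the Tbx1-/- arrays for 8 of the 11 and lower for 3 (27.3%, against 52.1% of all genes). Without Tbx1-/- replicate 3, 5 of the 11 were lower, where 52.7% of all genes were. Hand1, also a gene of the arch mesenchyme and the placenta, read 8.35 to 8.78 on the Tbx1+/+ arrays and 8.81, 8.60 and 9.63 on the Tbx1-/- arrays. Gata4 and Nppb were likewise highest on Tbx1-/- replicate 3, at 5.63 and 6.48, and the changes of Hand1, Gata4 and Nppb were 0.42, 0.38 and 0.28 with it and 0.11, 0.04 and -0.15 without it. Of 7 smooth muscle markers 5 were tested and 0 passed in limma, and 0 had an unadjusted p under 0.05, with summed levels of 42.1 to 42.7 and 41.7 to 42.2. The 10 markers of neural crest mesenchyme summed to 102.2 to 102.9 and 102.4 to 103.3, and 0 passed in limma. Of these markers, 1 was higher (10%, against 1.47% of all genes) and 0 lower (against 1.2%) at an unadjusted p under 0.05. Their part, and that of the 8 endothelial markers (63.5 to 64.8 and 64.3 to 65.9) and 6 erythroid markers (59.5 to 60.3 and 59.5 to 59.9), in the differences between members was not tested.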

How the data were processed

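Total RNA of E10.5 mandibular arches was amplified from 100 ng and hybridized to 6 Affymetrix mouse expression arrays, 3 per genotype, per the labels' protocols. The authors deposited 1 log2 value per probe set and array. These were made with GCRMA per the submitters' processing notes, with its version not given in the sources used here. Their range, 1.95 to 15.11, shows the log scale. GCRMA corrects the background by probe sequence and equalizes the arrays' distributions, which would remove a shift common to most genes and can compress differences near background.

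Of 45101 probe sets, 34958 named 1 gene, 932 several and 9211 none. The platform annotation was used, and 34754 of the 34958 matched the reference table by gene ID, which changed 0 symbols. For each of the 18194 genes the brightest probe set (mean of 6 arrays) stood for the gene, and the 16074 genes whose set exceeded 4 on at least 3 arrays were tested with limma 3.58.1 in R 4.3.3 (lmFit, eBayes with intensity trend, genotype alone, Benjamini-Hochberg over all genes, threshold 0.05). Counts and adjusted p-values for genes come from this fit unless another setting is named beside them. Medians and overlaps use all members, tested or not.

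The members and lists were chosen with earlier results of these data known. Every member is accounted for. Per-array values are given for those at an unadjusted p under 0.05, with non-overlapping groups, or among the 10 with the highest mean. They are also given for a leading member of each role. Of other lists, up to 4 genes with the smallest p are named. Tbx1, Myog and the heart markers Bmp10, Nppa, Nkx2-5 and Nppb were named outside this rule. Arrays that share a replicate number deviated from their genotype's mean together, though weakly (correlations 0.261, 0.13 and 0.135). Unlike numbers gave -0.195 to 0.0647. The numbers were therefore tried as a pairing in the block alone, not in the main fit. This choice rests on the same values that were then tested. Blocked values stand beside calls they change. This comparison's fit was tried on 20 simulated tables of 16074 genes, 200 of them changed. It recovered 81.2% of genes changed by 1 and 97.8% of those changed by 2 on the log2 scale, with 4.97% false calls. The simulated noise was independent between arrays, and no simulated array stood apart. Recovery in the real data, where 6 genes passed, was not measured and can be lower. Alternatives were other filters, probe set rules, variance models, normalizations, the block and leaving out each array.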

Additional observations from a re-analysis of the deposited data

How the results depend on the processing

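No member passed the adjusted threshold in limma under any alternative except the replicate block, where 1 did (Tnnt1, adjusted p = 0.0361); its adjusted p was 0.058 to 0.628 under the others, and that of Synpo2l 0.0898 to 0.775. The block changed no other call, with 6 members lower (1.89% of all genes) and 3 higher (2.35%) where the unadjusted p was under 0.05. Array weights gave 8 lower and 4 higher at that level, and the shares of all genes were not counted there. With 1 array left out, 2 to 8 members were lower and 1 to 3 higher at that level, the fewest lower without Tbx1-/- replicate 1 and the most without Tbx1-/- replicate 3; 6 to 11 had non-overlapping lower groups and 2 to 6 non-overlapping higher groups, and 0 passed. The number lower was 3 without Tbx1+/+ replicate 1, and the number higher was 1 without Tbx1-/- replicate 2 or 3. Non-overlapping higher groups numbered 5 without Tbx1+/+ replicate 2, 4 without Tbx1+/+ replicate 3 and 6 without Tbx1-/- replicate 1, and fewer arrays leave more groups apart by construction. Shares of all genes moved too. Without Tbx1-/- replicate 3, 1.41% of all genes were lower by the unadjusted test, against 1.2% with all arrays. Non-overlapping lower groups rose from 3.42% to 7.54% of all genes. For the other leave-outs these shares were not counted. The median change of the members stayed between -0.09 and -0.02. Low signal limits the 9 members with means under 5 on the log2 scale, and the causes of these shifts were not tested.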
